A study of Mus musculus with 72 samples.

Results

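Amino acids cross cell membranes through solute carriers, and 10 genes of 4 such families were followed here in RNA of the suprachiasmatic nucleus (SCN), the hypothalamic nucleus that holds the master circadian clock of mammals. The members are Slc7a5, Slc3a2, Slc7a8, Slc7a1, Slc7a3, Slc7a11, Slc38a1, Slc38a2, Slc1a4 and Slc1a5, matched in the tables by name. The list was chosen with earlier results of these data known. They are 10 of the 24346 gene symbols of the tables, each stands on 1 row, and all 10 were above 0 in every library and passed the filter used below (0.5 FPKM or more on average).

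Slc7a5 (LAT1) and Slc7a8 (LAT2) are light chains that exchange large neutral amino acids such as tryptophan, leucine and tyrosine, and both work as a heterodimer with the heavy chain Slc3a2 (CD98hc, 4F2hc). LAT1 is known as the main carrier of tryptophan across the blood-brain barrier. Slc7a11 (xCT) uses the same heavy chain and exchanges cystine for glutamate. Slc7a1 (CAT1) and Slc7a3 (CAT3) carry arginine and lysine, Slc38a1 (SNAT1) and Slc38a2 (SNAT2) bring small neutral amino acids into the cell with sodium, and Slc1a4 (ASCT1) and Slc1a5 (ASCT2) exchange alanine, serine, cysteine or glutamine. Several of these genes, Slc7a11, Slc7a5, Slc3a2, Slc7a1 and Slc38a2 among them, are textbook targets of the transcription factor ATF4, which cells make more of when an amino acid is missing.

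Male C57BL/6 mice, aged 8 weeks, were kept in 12 h light and 12 h dark (LD) or in constant darkness (DD) for 1 week and then, under the same schedule, for a further 2 weeks on a diet without tryptophan (-Trp) or on a control diet matched for nitrogen (Ctrl), both eaten ad libitum. The mice carried no transgene or deletion. SCN RNA was sequenced at 0, 4, 8, 12, 16 and 20 h (ZT in LD, CT in DD) with 3 libraries per time point, which gives 4 groups of 18 libraries and 72 in all. The study counts mice as its replicates, while the labels name no animal for a library.

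The column names of the deposited tables and the study's supplementary table disagree, and which of them is right was not settled here. In the study's supplementary table, the values of a Ctrl library stand under another name than in the deposited tables, with a shift of 12 columns. The 36 Ctrl libraries were placed by equal values, and the 36 -Trp libraries by continuing the shift. This placement is used throughout. With the columns as named, 23 of the 50 differences in level computed for single members turn the other way, so every direction below rests on the placement.

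The summed FPKM of a library fell into 1 of 2 separate ranges. All 36 LD libraries lay above 400000, and 35 of the 36 DD libraries lay below it. With the columns as named, 12 libraries named Ctrl LD, 1 named -Trp LD, 6 named Ctrl DD and all 18 named -Trp DD would lie above it. The light schedule and this range therefore cannot be told apart, while the diets can be compared within each of them. The library of -Trp DD at 4 h, replicate 2, lay in the upper range. Summed over 8 markers of SCN neurons (Avp and Six6 among them), 2 libraries stood below the rest, Ctrl DD at 12 h, replicate 1, at 47.9 FPKM and -Trp LD at 20 h, replicate 3, at 55.1 FPKM, against 150.1 to 1033.7 FPKM in the other 70. Calls that change without these 3 libraries are given both ways. Depth is unknown, since FPKM carries no read counts.

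All 10 members are protein-coding genes, and the positions given here are of the mouse assembly GRCm38 (mm10) in GENCODE M21. Slc7a5 lies at chr8:121881150-121907694, and Slc3a2 lies at chr19:8706882-8723369. Slc7a8 lies at chr14:54722209-54781946, and Slc7a11 lies at chr3:49892526-50443614. Slc7a1 lies at chr5:148327410-148399904, and Slc7a3 lies at chrX:101079210-101086020. Slc38a1 and Slc38a2 are neighbours on chromosome 15, at chr15:96571418-96642913 and chr15:96687392-96699730. Slc1a4 lies at chr11:20302180-20332713, and Slc1a5 lies at chr7:16781340-16798274. Slc1a5 is on the plus strand and the other 9 are on the minus strand.

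Promoter sequences from RefSeq (GRCm38.p6), from 250 bases before to 50 bases after a RefSeq start, were found for 6 of the 10 members, and not for Slc7a5, Slc7a3, Slc38a1 and Slc1a5. Each was searched on both strands for 2 motifs that do not overlap each other, the E-box CACGTG, which clock factors bind, and TGATGNAA, the form of the amino acid response element that ATF4 binds together with a C/EBP factor. Over all 32851 promoters of this length, 7.15% held CACGTG and 3.97% held TGATGNAA. The first of the windows below, of Slc7a11, holds TGATGNAA on each strand, from base -66 and from base -47 (the RefSeq start is base 0), and Slc1a4 holds it on the reverse strand from base -4. Slc3a2 and Slc38a2 are shown because the results below turn on them, and their windows hold neither. The window of Slc3a2 is that of an internal start, 9472 bases inside the GENCODE gene, and holds the 5′ ends of 2 of its 9 transcripts, so the outer starts of Slc3a2 were not searched. CACGTG was in none of the members' windows. Bases outside the windows, introns among them, were not searched for any member, so a window without a motif does not show that the gene lacks it. Each line gives the window 5′ to 3′ in the direction of the gene, at chr3:50443564-50443863, chr11:20332664-20332963, chr19:8713848-8714147 and chr15:96699679-96699978, all on the minus strand, with each match in capitals.
Slc7a11: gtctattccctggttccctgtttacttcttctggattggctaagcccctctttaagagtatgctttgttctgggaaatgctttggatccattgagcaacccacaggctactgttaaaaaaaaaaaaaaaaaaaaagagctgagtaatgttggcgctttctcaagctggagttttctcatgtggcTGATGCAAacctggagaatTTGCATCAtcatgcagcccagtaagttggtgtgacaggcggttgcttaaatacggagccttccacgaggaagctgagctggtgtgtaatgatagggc
Slc1a4: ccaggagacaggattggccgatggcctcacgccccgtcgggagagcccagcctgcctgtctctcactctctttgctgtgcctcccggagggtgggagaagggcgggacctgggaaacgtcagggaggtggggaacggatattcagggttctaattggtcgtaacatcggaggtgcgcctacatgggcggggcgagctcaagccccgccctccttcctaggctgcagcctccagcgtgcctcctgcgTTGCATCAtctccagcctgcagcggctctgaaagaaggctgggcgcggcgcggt
Slc3a2: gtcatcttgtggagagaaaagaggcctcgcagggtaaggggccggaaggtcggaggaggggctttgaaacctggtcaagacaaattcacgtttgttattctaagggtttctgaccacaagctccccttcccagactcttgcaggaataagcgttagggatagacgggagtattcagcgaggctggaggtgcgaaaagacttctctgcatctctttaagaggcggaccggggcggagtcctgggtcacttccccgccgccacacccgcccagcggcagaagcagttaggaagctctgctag
Slc38a2: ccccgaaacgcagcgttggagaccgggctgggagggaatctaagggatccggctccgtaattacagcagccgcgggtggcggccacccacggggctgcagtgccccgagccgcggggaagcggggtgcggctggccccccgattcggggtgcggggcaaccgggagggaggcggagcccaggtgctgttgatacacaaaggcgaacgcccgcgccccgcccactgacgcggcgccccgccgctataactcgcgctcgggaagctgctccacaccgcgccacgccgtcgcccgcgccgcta

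FPKM is scaled to the length of the transcript, so levels may be compared between genes. Slc38a1 and Slc3a2 were the most abundant members, at 37.3 ± 4.56 FPKM and 35.7 ± 6.84 FPKM (mean ± SD over 72 libraries). The order of this pair went with the light schedule, with Slc3a2 the higher in 30 of 36 LD libraries and Slc38a1 the higher in 34 of 36 DD libraries. Slc1a4 followed at 27.5 ± 3.39 FPKM and Slc38a2 at 22.7 ± 6.07 FPKM. Slc7a3 was at 15.3 ± 2.77 FPKM, above Slc7a5 at 12.1 ± 2.65 FPKM in 66 libraries. Slc7a1 (6.89 ± 1.29 FPKM), Slc7a8 (5.96 ± 1.59 FPKM) and Slc7a11 (5.22 ± 2.10 FPKM) followed. Slc7a8 was above Slc7a11 in 35 of 36 LD libraries, and Slc7a11 was the higher in 26 of 36 DD libraries. Slc1a5 was the lowest at 0.992 ± 0.346 FPKM, below Slc7a11 in all 72. The heavy chain Slc3a2 stood well above its light chain Slc7a5, with a ratio of the levels between 2.21 and 3.82 over all libraries and a median between 2.85 and 3.04 in each of the 4 groups.

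**Figure D1:**
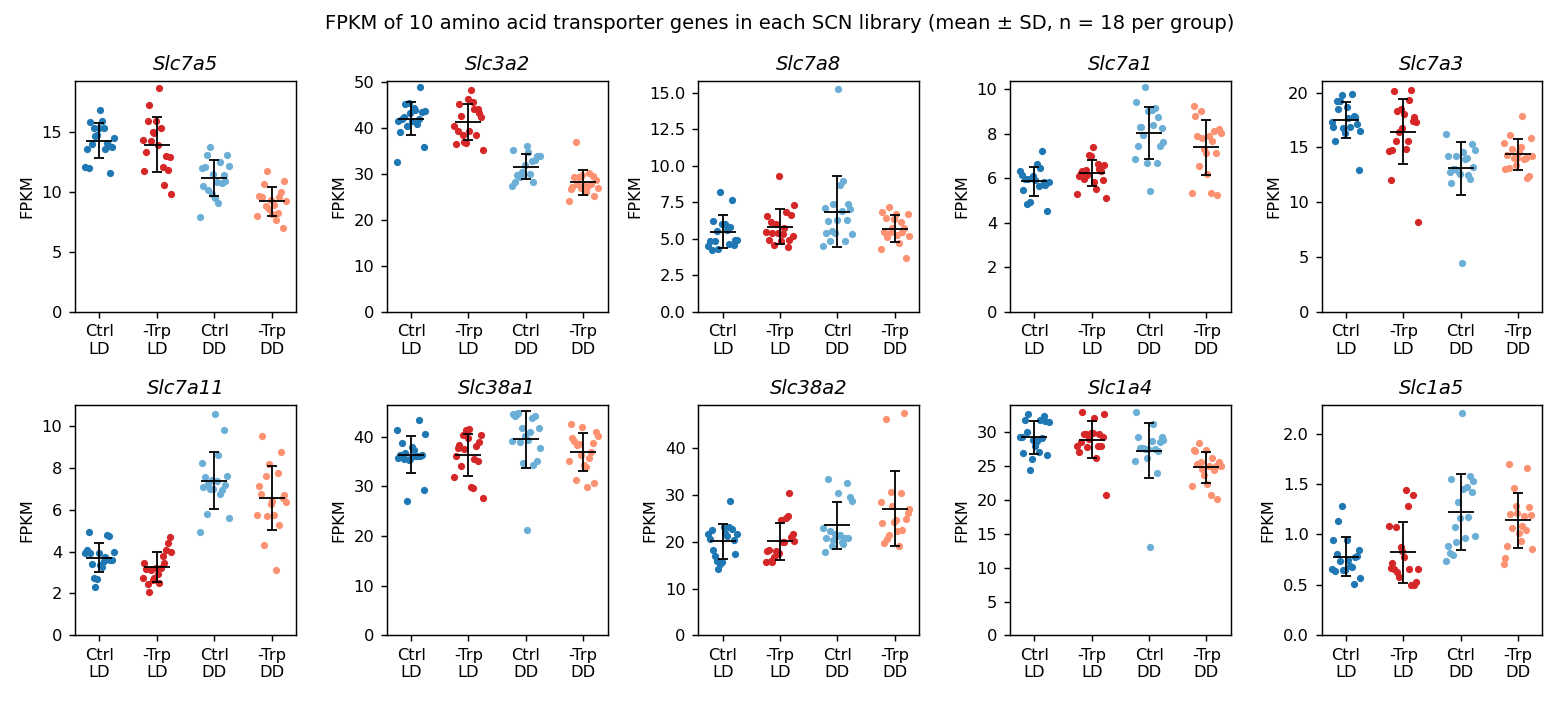
FPKM as deposited (y axis, from 0, a scale of its own for each gene) of the 10 members in each library (points), by group (x axis), with mean ± SD over 18 libraries in black. Slc7a5 and Slc3a2 are lowest in -Trp DD, with means of 9.18 and 28.1 FPKM, and Slc7a11 is lower in both LD groups, at 3.70 and 3.26 FPKM, than in both DD groups, at 7.37 and 6.55 FPKM.

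The first comparison asked what the diet without tryptophan did to the transporters within each light schedule. In DD, both chains of LAT1 fell on -Trp, Slc7a5 to 0.84 and Slc3a2 to 0.90 of their Ctrl level on the log2(FPKM + 0.5) scale. The other 8 members did not pass the test in DD, and none of the 10 passed it in LD. The test was limma with Benjamini-Hochberg adjustment over all genes tested, with time of day as a factor.

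Slc7a5 lay between 7.85 and 13.7 FPKM in the 18 Ctrl DD libraries, with a median of 11.1, and between 6.96 and 11.7 FPKM with a median of 9.25 in the 18 -Trp DD libraries. The groups overlapped, but 17 of the 18 -Trp DD libraries were below the Ctrl DD median and 7 Ctrl DD libraries were above the highest -Trp DD library. The mean was lower on -Trp at 6 of 6 time points, and at 12, 16 and 20 h all 3 -Trp libraries were below all 3 Ctrl libraries. At 12 h the Ctrl DD libraries were at 9.44, 10.8 and 9.09 FPKM and the -Trp DD libraries at 8.16, 8.87 and 7.61 FPKM. The log2 difference was -0.26 ± 0.05 (SE), with an adjusted p of 0.00468.

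Slc3a2 lay between 27.4 and 36.1 FPKM in Ctrl DD with a median of 31.1, and between 24.1 and 36.8 FPKM in -Trp DD with a median of 27.6. Of the 18 -Trp DD libraries, 8 were below every Ctrl DD library and 17 were below the Ctrl DD median. The one above it, at 36.8 FPKM, was the 4 h library of the upper range of summed FPKM. The mean was lower on -Trp at 5 of 6 time points, and at 0, 8, 12 and 20 h the 3 libraries of the 2 diets did not overlap. The log2 difference was -0.15 ± 0.04, with an adjusted p of 0.0100, and without the libraries that stand apart it was -0.15 ± 0.03, with an adjusted p of 0.00116.

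Of all 14484 genes tested in DD, 13.4% were called and 6.19% were called as lower on -Trp, against 2 of the 10 members, both lower. The median log2 difference was -0.11 over the members and 0.01 over all genes tested. Each call held with any 1 library left out, over 36 such fits, where the adjusted p of Slc7a5 reached at most 0.00985 and that of Slc3a2 at most 0.0187. With the columns as named, both turn: Slc7a5 was then higher on -Trp in DD by 0.39 and Slc3a2 by 0.34 on the log2 scale, with adjusted p-values of 1.84e-06 and 9.3e-07.

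Among the members that did not pass in DD, Slc7a8, the other light chain for large neutral amino acids, differed by -0.20 ± 0.10 on the log2 scale (adjusted p = 0.167). Its highest value, 15.2 FPKM, was in the Ctrl DD library at 12 h with few SCN neuron markers. Slc38a2 differed by 0.19 ± 0.10 (adjusted p = 0.204), and Slc7a3 by 0.17 ± 0.09 (adjusted p = 0.197). Without both DD libraries that stand apart, the difference of Slc7a8 was -0.12, that of Slc7a3 0.08 and that of Slc7a11 -0.08, and none of them passed. Slc1a4 differed by -0.11 ± 0.06 (adjusted p = 0.205), lower in mean on -Trp at 6 of 6 time points. Its value in the Ctrl DD library at 12 h, replicate 1, was 13.1 FPKM against 24.01 to 32.95 FPKM in the other 17. Without that library alone, Slc1a4 fell by 0.16 on the log2 scale with an adjusted p of 0.00506, and without the pair by 0.17 ± 0.04 (adjusted p = 0.0052). Under the latter setting Slc38a2 also passed, higher on -Trp by 0.27 ± 0.10 (adjusted p = 0.0490), so that 4 members were called in place of 2. The remaining 4 members, Slc7a1, Slc7a11, Slc38a1 and Slc1a5, differed by between -0.17 and -0.06, with adjusted p-values of 0.265 or more.

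LAT1 is made in brain endothelium as well as in neurons, and in bulk tissue fewer cells of a type and less RNA per cell cannot be told apart. Of 10 endothelial markers, none passed the test between the diets in DD and none was at 0 in any library. Their summed level was 54.7 to 111 FPKM in Ctrl DD (median 70.1) and 53.8 to 85.2 FPKM in -Trp DD (median 71.1). Much of this sum was Slc2a1, with medians of 26.6 and 29.3 FPKM, and the median log2 difference of the endothelial markers was -0.09. Of 8 markers of SCN neurons none passed in DD, and their sum had a median of 404 FPKM in Ctrl DD (47.9 to 543) and 415 FPKM in -Trp DD (197 to 808). Most of that sum was Avp, with medians of 362 and 360 FPKM. Of 4 general neuronal markers and 5 mural cell markers none passed in DD either. Their median log2 differences were -0.09 and -0.23, against 0.19 for the SCN neuron markers. The neuronal marker Rbfox3 differed by -0.26 (adjusted p = 0.0515 by limma). Of 4 oligodendrocyte markers, Mag fell by 0.38 on the log2 scale, from a median of 58.1 FPKM (40.4 to 120 FPKM) in Ctrl DD to 48.0 FPKM (29.3 to 75.6 FPKM) in -Trp DD. Mbp, Mog and Cnp did not pass (adjusted p = 0.0562, 0.0998 and 0.0542 by limma), and Mbp, the most abundant of them, had a median of 829 FPKM (566 to 1969 FPKM) in Ctrl DD and 634 FPKM (453 to 1231 FPKM) in -Trp DD. Aqp4 of the 5 astrocyte markers and Cx3cr1 of the 5 microglial markers fell as well, both by 0.22. The part of these cells in the fall of Slc7a5 and Slc3a2 was not tested.

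In LD, Slc7a5 was nearly level between the diets, at 11.6 to 16.8 FPKM with a median of 14.3 in Ctrl LD and 9.81 to 18.6 FPKM with a median of 14.03 in -Trp LD. The log2 difference was -0.03 ± 0.04 (adjusted p = 0.860), with the mean lower on -Trp at 3 of 6 time points. For Slc3a2 it was -0.01 ± 0.04 (adjusted p = 0.972). The members nearest the threshold in LD were Slc7a1, at 5.86 ± 0.648 FPKM in Ctrl LD and 6.24 ± 0.594 FPKM in -Trp LD (log2 difference 0.10 ± 0.04, adjusted p = 0.258), and Slc7a11, at 3.70 ± 0.697 and 3.26 ± 0.713 FPKM (log2 difference -0.15 ± 0.06, adjusted p = 0.275). Over all genes 1.11% were called in LD, 80 higher and 77 lower on -Trp (41 and 89 on FPKM as deposited), so that 0 of 10 members lies near the background. At an unadjusted p under 0.05, 1848 of 14202 genes and 2 of the members, Slc7a1 and Slc7a11, would pass. Cell type markers differed between the diets in LD too. None of the 10 endothelial markers passed, but their median log2 difference was -0.33. The mural cell marker Rgs5 differed by -0.40 (limma, adjusted p = 0.00447) and the astrocyte marker Aqp4 by -0.35 (adjusted p = 0.0318). The part of these cells in the members' values in LD was not tested.

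**Figure D2:**
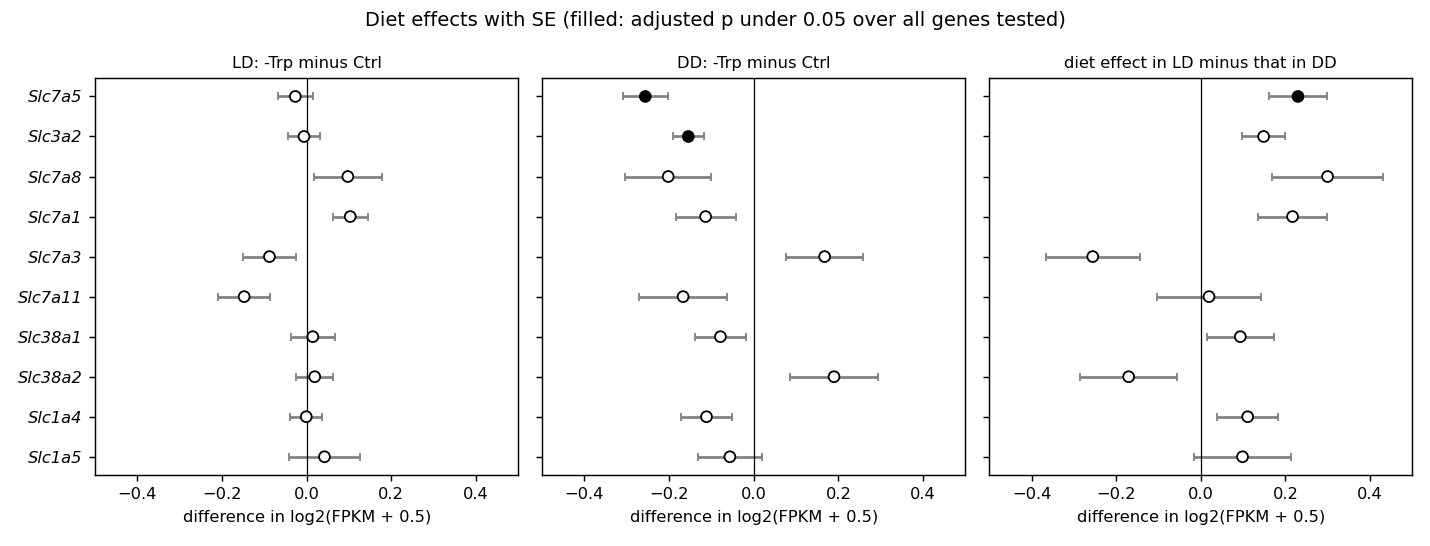
Diet effect on each member in LD (left) and DD (middle), as -Trp minus Ctrl, and the difference of those effects, LD minus DD (right), in log2(FPKM + 0.5) with SE. Filled points, Slc7a5 and Slc3a2 in the middle and Slc7a5 on the right, have an adjusted p under 0.05 over all genes tested.

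The test of the difference itself, the diet effect in LD minus that in DD over all 72 libraries, passed for Slc7a5, at 0.23 ± 0.07 on the log2 scale (limma, adjusted p = 0.0263). For its heavy chain Slc3a2 it was 0.15 ± 0.05 (adjusted p = 0.0602). Of all genes tested 7.69% were called, 774 with a positive and 336 with a negative difference (501 and 352 on FPKM as deposited), against 1 of 10 members. On FPKM as deposited, with no scaling between libraries, Slc7a5 was at 0.22 ± 0.07 with an adjusted p of 0.0607 and no member was called. Without the 3 libraries that stand apart, Slc7a5, Slc3a2 and Slc1a4 were called, with adjusted p-values of 0.0180, 0.0268 and 0.00673. With the columns as named, the sign turned for each of them. Of the cell type markers, 4 passed this test. The neuronal marker Rbfox3 had the sign of Slc7a5, at 0.41 (adjusted p = 0.0173), and the endothelial markers Slco1a4 and Slc2a1 and the SCN neuropeptide Avp had the opposite sign, at -0.56, -0.25 and -1.01. Their part in the difference of Slc7a5 was not tested.

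Time of day was asked about next, by JTK_CYCLE, a rank test for a 24 h cycle, in each group of 18 libraries at an unadjusted p under 0.05. Slc38a2 and Slc7a5 were called rhythmic in Ctrl LD, and Slc38a2, Slc7a11 and Slc7a5 in -Trp LD. None of the 10 was called in Ctrl DD or in -Trp DD. Over all genes that pass the filter, the share called in LD was 10.9% on Ctrl and 11.1% on -Trp, and in DD it was 6.62% on Ctrl and 1.81% on -Trp.

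Slc38a2, the sodium-coupled carrier of small neutral amino acids, had the lowest p. In -Trp LD its 3 libraries were at 16.0, 15.6 and 16.8 FPKM at 4 h and at 25.1, 25.5 and 30.4 FPKM at 16 h. These times did not overlap, but were picked from the same values as those of the lowest and highest mean. In Ctrl LD they were at 14.2, 15.3 and 15.8 FPKM at 8 h and at 23.2, 28.8 and 22.8 FPKM at 16 h. The gene was thus low in the light phase and high in the first part of the dark phase on both diets, by 1.67 times between the highest and the lowest time mean on -Trp and 1.65 times on Ctrl. The p-value was 1.71e-06 in -Trp LD and 0.0147 in Ctrl LD. A fitted 24 h cosine peaked at 15.9 h in -Trp LD and at 17.5 h in Ctrl LD. Without the replicate 1 or the replicate 2 library at 16 h, the p-value in Ctrl LD was 0.0535.

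Slc7a5 ran the other way, with its highest time mean at 12 h, the end of the light phase, on both diets. In -Trp LD its means at 4, 8 and 12 h were close, at 15.8, 15.2 and 15.9 FPKM. In Ctrl LD it was at 16.8, 15.9 and 15.3 FPKM at 12 h and at 12.1, 13.6 and 12.0 FPKM at 0 h. In -Trp LD it was at 13.8, 18.6 and 15.3 FPKM at 12 h and at 11.8, 12.9 and 9.81 FPKM at 20 h. At these times the highest library of the low point was below the lowest of the high point in both groups. The times are those of the highest and lowest mean, picked from the same values, so this adds no support to the call. The p-value was 0.00291 in each group, and the fitted cosine peaked at 9.80 h in Ctrl LD and 7.46 h in -Trp LD. Its heavy chain Slc3a2 was not called on either diet, with time means between 37.6 and 43.8 FPKM in Ctrl LD and between 38.7 and 44.3 FPKM in -Trp LD.

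Slc7a11, the cystine carrier, was at 2.44, 2.09 and 3.10 FPKM at 4 h and at 4.40, 4.70 and 3.99 FPKM at 20 h in -Trp LD, with a p of 0.000943. In Ctrl LD its time means went from 2.99 FPKM at 8 h to 4.41 FPKM at 16 h, with a p of 0.115, and the p was 0.0405 without the library at 8 h, replicate 3. Slc7a11 being called on 1 diet and not on the other is no difference between them, since the test of that difference did not pass.

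**Figure D3:**
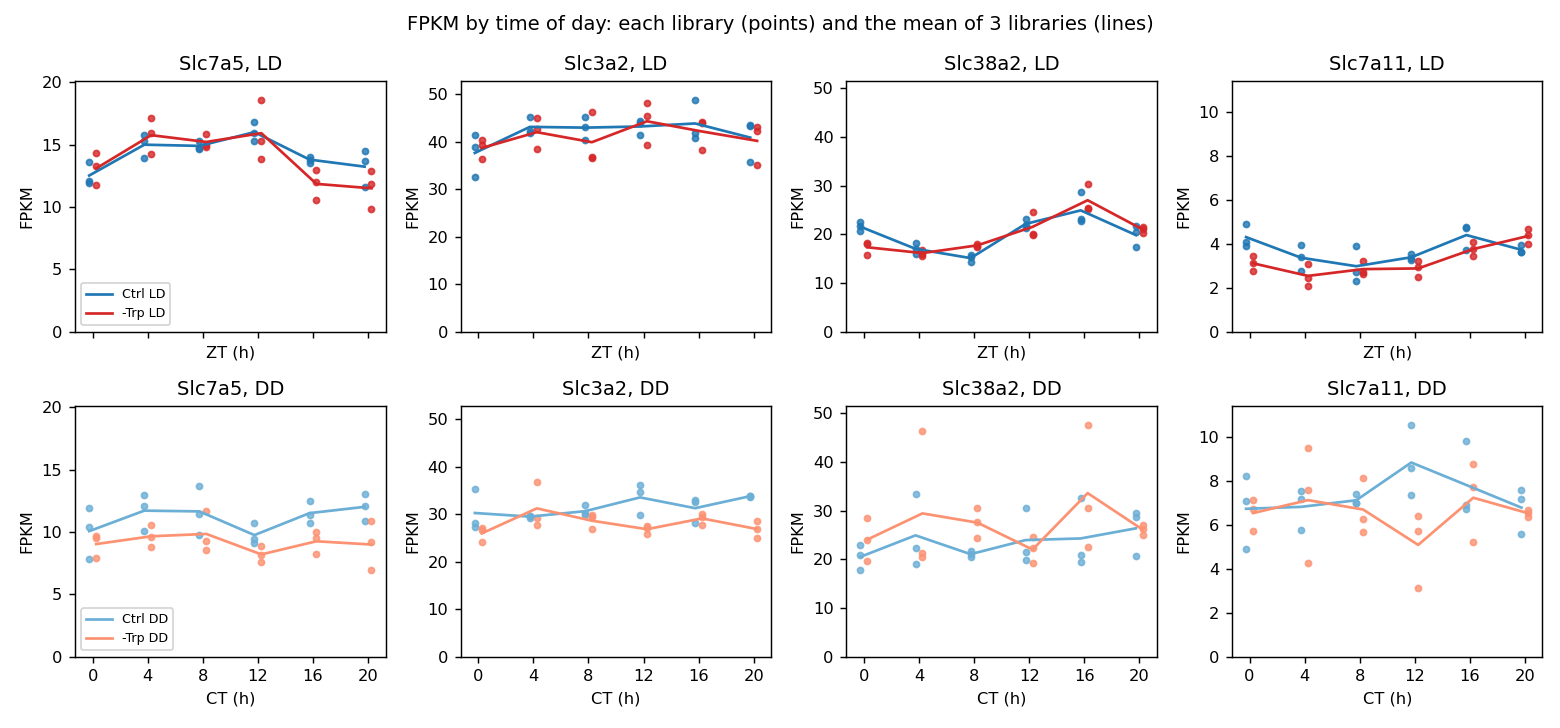
FPKM as deposited (y axis, from 0) of Slc7a5, Slc3a2, Slc38a2 and Slc7a11 by time of day in h (x axis), in LD (top, ZT) and DD (bottom, CT), with 3 libraries per time and diet (points) and their mean (lines). In LD Slc38a2 peaks at 16 h on both diets and Slc7a5 at 12 h, and in DD the -Trp line of Slc7a5 lies under the Ctrl line at all 6 times.

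That test, a joint limma F-test of diet by cosine and diet by sine, called 0 of the members in LD and 0 in DD. Over all genes it called 0% in LD (456 of 14202 genes had an unadjusted p under 0.05) and 0.0345% in DD (990 of 14484). The smallest unadjusted p among the members in LD was that of Slc7a5, at 0.0673. Adjusted for all rows of the table, the JTK_CYCLE p of Slc38a2 in -Trp LD still passed, and no other member did in any group. In a limma cosinor model, Slc38a2 (adjusted p = 0.00023), Slc7a11 (0.0135) and Slc7a5 (0.0303) passed in -Trp LD and Slc38a2 in Ctrl LD (0.0483).

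In DD, Slc38a2 had a p of 1.0 on both diets, and its fitted amplitude was 0.06 on the log2 scale in each, against 0.27 in Ctrl LD and 0.34 in -Trp LD. The spread within a time point was wide there, as at 16 h in -Trp DD, where the 3 libraries were at 30.5, 22.6 and 47.6 FPKM. The clock gene Arntl (Bmal1), a positive factor of the core clock, was called rhythmic in Ctrl LD (p = 0.0196) and -Trp LD (p = 0.00795) and had a p of 1.0 in both DD groups. In the limma cosinor model, however, its unadjusted p in Ctrl LD was 0.303. Per2, a negative factor of the clock, was not called in any group (p = 0.143 in Ctrl LD, 0.640 in Ctrl DD and 1.0 in both -Trp groups). The study itself reported no change on -Trp in how selected clock genes of the SCN oscillate, under LD and DD. It gave that result before turning to its SCN sequencing, and its methods list quantitative PCR of clock genes, so the assay may differ from the one used here. Since neither clock gene was called in DD here, a member not called there is not shown to lack a rhythm. Whether the rhythms differ between LD and DD was tested only after these calls were seen. By a limma F-test of light by cosine and sine, none of the 10 members passed on either diet. That test called 0.0832% of all genes on Ctrl and 0.0278% on -Trp (2125 of 14426 and 1241 of 14403 at an unadjusted p under 0.05). The members' smallest unadjusted p was 0.00897 for Slc7a11 on Ctrl and 0.0227 for Slc7a5 on -Trp.

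**Figure D4:**
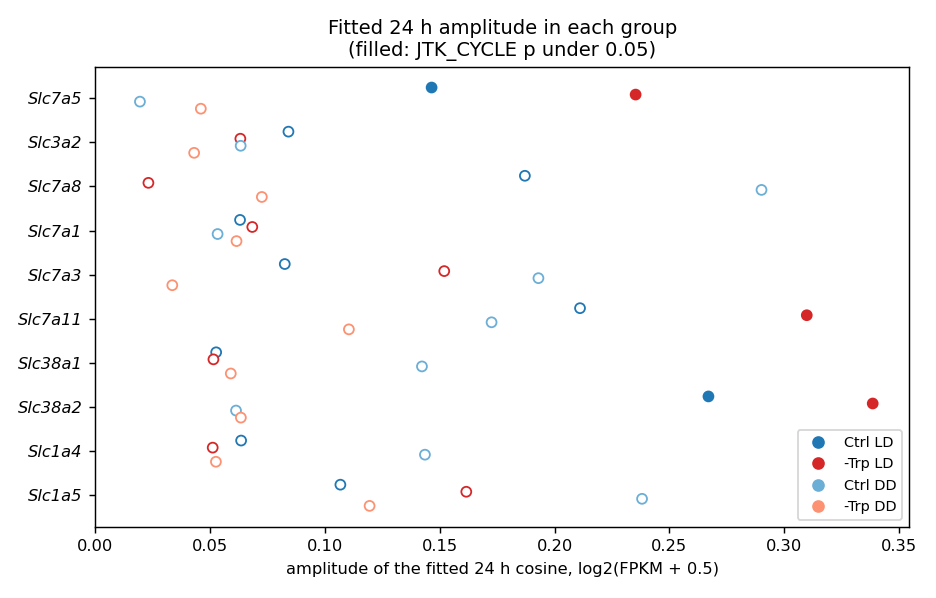
Amplitude of the 24 h cosine fitted to log2(FPKM + 0.5) (x axis, from 0) for each member (y axis) in each of the 4 groups (colours). Filled points have a JTK_CYCLE p under 0.05, and all 5 of them are LD groups, with the largest amplitude, 0.34, in Slc38a2 in -Trp LD.

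With the columns as named, the calls moved between groups, to 6 members (Ctrl) and 0 (-Trp) under LD and 5 (Ctrl) and 3 (-Trp) under DD. Slc38a2 was then called in -Trp DD alone, with a p of 0.000943.

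LD and DD were compared last, within each diet. The direction of each difference below goes with the range of summed FPKM as much as with the light schedule. With that limit, 9 of 10 members differed on Ctrl and 8 of 10 on -Trp, which is close to the background of 78.8% and 79.5% of all genes. On Ctrl, 3 members were higher in LD (41.1% of all genes) and 6 were lower (37.8%). On -Trp, 3 were higher (41.7%) and 5 were lower (37.8%).

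Slc7a11 had the largest difference of the members on both diets. It was at 2.33 to 4.93 FPKM in Ctrl LD (median 3.67) and at 4.91 to 10.6 FPKM in Ctrl DD (median 7.19), and 17 of the 18 Ctrl DD libraries were above every Ctrl LD library. In -Trp LD it was at 2.09 to 4.70 FPKM (median 3.17) and in -Trp DD at 3.14 to 9.51 FPKM (median 6.49). The log2 difference, LD minus DD, was -0.999 ± 0.077 on Ctrl (limma, adjusted p = 1.6e-13) and -0.98 ± 0.09 on -Trp (adjusted p = 2.77e-11).

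The LAT1 chains went the other way. Slc3a2 was at 32.5 to 48.9 FPKM in Ctrl LD against 27.4 to 36.1 FPKM in Ctrl DD, and 16 of 18 Ctrl LD libraries were above all Ctrl DD libraries. Its log2 difference was 0.30 ± 0.04 on Ctrl and 0.45 ± 0.04 on -Trp, and that of Slc7a5 was 0.25 ± 0.05 and 0.48 ± 0.06, each with an adjusted p of at most 4.69e-05. Slc7a3, a carrier of cationic amino acids, was higher in LD on Ctrl by 0.33 ± 0.09, and on -Trp it differed by 0.08 ± 0.07 (adjusted p = 0.295). Without the -Trp LD library at 20 h, replicate 3, where it was at 8.21 FPKM, it was higher in LD on -Trp by 0.13 (adjusted p = 0.0247), and on FPKM as deposited by 0.17 (adjusted p = 0.0360).

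Slc7a1, the other carrier of cationic amino acids, was lower in LD by 0.52 ± 0.05 on Ctrl and 0.30 ± 0.06 on -Trp. Slc38a2 was lower in LD by 0.32 ± 0.08 and 0.49 ± 0.09, and Slc1a5 by 0.48 ± 0.09 and 0.38 ± 0.09. Slc7a8 was lower in LD on Ctrl by 0.36 ± 0.10 and not called on -Trp. Slc38a1 was lower by 0.21 ± 0.06 on Ctrl and 0.12 ± 0.05 on -Trp (adjusted p = 0.0342). The latter call was lost with any of 10 single libraries left out, and both were lost on FPKM as deposited. Slc1a4 was higher in LD on -Trp by 0.12 ± 0.04 (adjusted p = 0.00717) and not called on Ctrl.

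Cell type markers moved with the light schedule as well. The oligodendrocyte markers Mbp, Mog, Mag and Cnp were all higher in LD, by 0.32 to 0.62 on Ctrl and by 0.62 to 0.83 on -Trp on the log2 scale. Of 10 endothelial markers, 2 were higher and 4 lower in LD on Ctrl and 1 was higher and 8 lower on -Trp, with summed levels of 49.5 to 131 FPKM in Ctrl LD and 49.3 to 113 FPKM in -Trp LD beside the DD ranges given above. All 3 meningeal markers, Dcn, Col1a1 and Lum, were lower in LD on both diets, with a median sum of 5.1 FPKM in Ctrl LD and 4.8 FPKM in -Trp LD against 17.7 FPKM in Ctrl DD and 12.8 FPKM in -Trp DD. Of 5 mural cell markers, 4 were lower on Ctrl, and of the 4 tested on -Trp 2 were lower and 1 was higher. Of 8 markers of SCN neurons, 5 were higher and 2 lower in LD on Ctrl, and 3 were lower on -Trp. Of 4 general neuronal markers, 3 were higher on Ctrl and 4 on -Trp, with median log2 differences of 0.27 and 0.49. Of 5 microglial markers, 2 were higher on Ctrl and 4 on -Trp, and none was lower. Of 5 astrocyte markers, 2 were higher and 2 lower on Ctrl, and 2 higher and 1 lower on -Trp. The part of these cells in the members' differences was not tested.

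**Figure D5:**
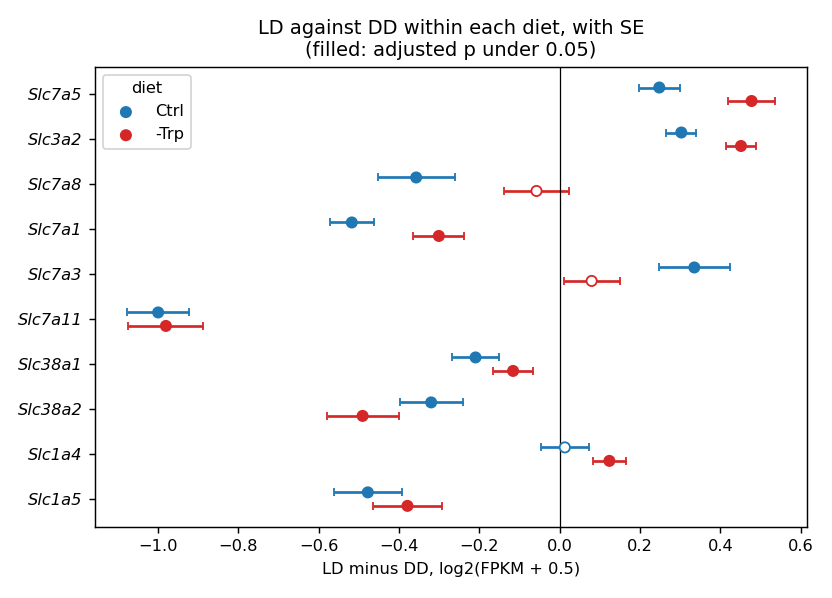
Difference between LD and DD in log2(FPKM + 0.5), as LD minus DD with SE (x axis), for each member (y axis) on Ctrl and on -Trp (colours), with filled points where the adjusted p is under 0.05. Slc7a11 lies near -1 on both diets, and Slc7a5 and Slc3a2 are higher in LD on both.

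Among 34 other amino acid transporter genes, 28 were tested in DD, where 6 fell on -Trp and 1 rose, against 13.4% of all genes called and 6.19% called as lower. Slc7a10 (asc-1), a carrier of glycine, serine and alanine, fell by 0.32 ± 0.06 on the log2 scale (adjusted p = 0.00125) and Slc38a6 rose by 0.14 ± 0.05 (adjusted p = 0.0434). The other 5 that fell, Slc6a9 (GLYT1), Slc38a3, Slc36a1, Slc6a17 and Slc43a2 (LAT4), are named because they are few. In LD, 2 of 26 fell, Slc7a10 by 0.20 ± 0.05 (adjusted p = 0.0266) and Slc38a3 by 0.17 ± 0.04 (adjusted p = 0.0404), against 1.11% of all genes called. The median log2 difference of the list was -0.05 in DD and 0.02 in LD, beside 0.01 and 0.00 over all genes. In the test of the difference between LD and DD, 4 of 27 were called (7.69% of all genes), all positive, led by Slc36a1 at 0.33 ± 0.08 (adjusted p = 0.0114).

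Of the same list, 5 of 27 were higher and 13 lower in LD on Ctrl, led by Slc7a10 (0.36 ± 0.06) and Slc6a6 (-0.85 ± 0.05), and 8 were higher and 14 lower on -Trp, led by Slc6a9 (0.42 ± 0.04) and Slc38a9 (-0.62 ± 0.04). Over all genes 41.1% were higher and 37.8% lower on Ctrl, and 41.7% and 37.8% on -Trp. JTK_CYCLE called 5 of the 34 in each LD group, 3 in Ctrl DD and 0 in -Trp DD, counting also those under the filter. The shares over all genes that pass it were 10.9% and 11.1% in LD and 6.62% and 1.81% in DD, on Ctrl and -Trp.

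Of 20 genes of the ATF4 response 18 were tested. On -Trp, Chac1, a glutathione-degrading enzyme, rose in LD by 0.22 ± 0.05 (adjusted p = 0.0103), and no gene of the list fell there. In DD none of the 18 passed. Chac1 was also the one gene of the list that passed the test of the difference between LD and DD, at 0.27 ± 0.07 (adjusted p = 0.0111). The median of the list was 0.07 in LD and 0.03 in DD. Between the light schedules, 13 were higher and 2 lower in LD on Ctrl and 14 and 3 on -Trp, beside 41.1% and 37.8% of all genes on Ctrl and 41.7% and 37.8% on -Trp. The median of the list was 0.41 and 0.39 there, against 0.02 over all genes on both diets, with Atf4 itself higher in LD by 0.73 ± 0.05 and 0.79 ± 0.04, and Aldh1l2, a mitochondrial folate enzyme, lower by 0.84 ± 0.05 and 0.80 ± 0.04. Slc7a11, Slc38a2 and Slc7a1, which were lower in LD, thus stood on the other side from Atf4, and Slc7a5 and Slc3a2 on the same side. JTK_CYCLE called 6 of the 20 genes in -Trp LD, where 11.1% of all genes were called, and 1 in each other group.

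The likeness of patterns was described by Pearson's r over the 72 libraries of scaled log2(FPKM + 0.5), after the mean of each group was subtracted. These points share library quality and dissection, and r is given as a description. The genes most like Slc7a5 were Slc45a1 (0.78), Igsf8 (0.78) and Acsf3 (0.78), and those most like Slc3a2 were Dctn2 (0.74), Nfkbib (0.73) and Tubb4a (0.69). For Slc38a2 they were Slc7a2 (0.81), a further carrier of cationic amino acids, Abca9 (0.79) and Errfi1 (0.77). No other member was among the 100 genes most like any of these 3. Between members, Slc7a1 and Slc38a1 were most alike (0.71), followed by Slc38a1 and Slc1a4 (0.68) and by Slc7a3 and Slc1a4 (0.66), and Slc7a11 went with Slc38a2 (0.57). Slc38a1 and Slc1a5 were the least alike (-0.55). With the summed SCN neuron markers, r was 0.52 for Slc1a4, 0.47 for Slc7a5 and 0.41 for Slc7a3, -0.40 for Slc7a8 and -0.30 for Slc7a11, and between -0.17 and 0.20 for the other 5 members. By the medians, Avp made up most of that sum in each group, as in Ctrl LD (483 beside 536 FPKM), so r mainly describes Avp. With the summed markers of other cell types, r was larger in size for several members. It was -0.69 for Slc7a3 and -0.60 for Slc38a1 with microglia, -0.62 for Slc1a4 with mural cells and 0.60 for Slc1a5 with meninges. For Slc7a5 it lay between -0.15 (choroid plexus and ependyma) and 0.11 (endothelium) with those sums.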

How the data were processed

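The authors sequenced stranded mRNA libraries and, per the labels and the study's methods, trimmed reads with Trimmomatic, aligned them to mm10 with TopHat and computed FPKM with Cufflinks (versions are not given in the sources used here). The deposited FPKM values are the starting point here, in 4 tables of 24883 rows. Columns were placed in the order of the study's supplementary table, where every value of 0.05 FPKM or more printed for the 36 Ctrl libraries equalled the deposited one (relative tolerance 0.0001).

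Levels were compared with limma 3.58.1 (R 4.3.3) on scaled values, log2(FPKM + 0.5), with median-of-ratios factors from all 72 libraries, keeping genes that average 0.5 FPKM or more in the comparison. Fold changes are on that scale, which understates changes of low genes. Adjusted p-values are Benjamini-Hochberg over all genes tested, with a threshold of 0.05. JTK_CYCLE (exact null, period 24 h, Bonferroni over 6 lags) was run in Python 3.11.15 on FPKM as deposited, and its p-values equalled those printed for 1987 rows of Ctrl LD and 135 of Ctrl DD. Both tests were tested on simulated data.

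All 10 members are named. Other genes were named by the smallest adjusted p in each direction within a list, or by likeness to Slc7a5, Slc3a2 and Slc38a2. The result for 1 oligodendrocyte marker is not reported here. Members, lists and motifs were chosen with earlier results of these data known. The alternatives were the columns as named, FPKM without scaling, pseudocounts of 0.1 and 1, no filter or one of 1 FPKM, the replicate block, a cosine and sine of time, 1 fit for 72 libraries, other rhythm tests and each library left out. Leaving out the libraries that stand apart, and the comparison of rhythms between LD and DD, were added after seeing the data.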

Additional observations from a re-analysis of the deposited data

Results flagged for a closer look

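The diet effect on Slc7a5 differed between the light schedules by a test of that difference. The effect in LD (-0.03 ± 0.04 on the log2 scale, mean of 14.2 FPKM in Ctrl LD and 13.9 FPKM in -Trp LD) minus that in DD (-0.26 ± 0.05, 11.1 and 9.18 FPKM) was 0.23 (SE 0.07, limma, adjusted p = 0.0263). Its adjusted p lay between 0.00771 and 0.0455 with each of the 72 libraries left out in turn, and was 0.0607 on FPKM as deposited. In DD the mean was lower on -Trp at 6 of 6 time points, and in LD at 3 of 6. The light schedules differ in the range of summed FPKM, and its part in the difference was not tested.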

How the results depend on the processing

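Pseudocounts of 0.1 and 1, no filter, the stricter filter, a cosine and sine of time and 1 fit for 72 libraries changed no call of a member in the comparisons of level or of rhythm between diets, except that Slc1a5 could not be tested under the stricter filter in 4 of them. With the columns as named, the number of members called moved to 5 (diet, LD), 7 (diet, DD), 0 (light, Ctrl), 7 (diet by light), 2 and 2 (rhythm between diets, LD and DD) and for the rhythm in LD to 6 on Ctrl and 0 on -Trp, and in DD to 5 on Ctrl and 3 on -Trp. These values then turned: for the diet in LD, Slc7a11 0.73. For the diet in DD, Slc7a5 0.39, Slc3a2 0.34, Slc38a2 -0.39 and Slc1a4 0.0891. For light on Ctrl, Slc7a8 0.0813, Slc7a1 0.0212, Slc7a3 -0.0182 and Slc38a1 0.0352. For light on -Trp, Slc7a5 -0.35, Slc3a2 -0.35, Slc7a8 0.32, Slc7a1 0.46, Slc7a3 -0.26, Slc7a11 1.11, Slc38a1 0.14, Slc38a2 0.43, Slc1a4 -0.064 and Slc1a5 0.49. For diet by light, Slc7a5 -0.59, Slc3a2 -0.56, Slc38a2 0.58 and Slc1a4 -0.18. Here the libraries of other groups enter each comparison.

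FPKM as deposited called 0 members for diet by light. Without the libraries that stand apart, 4 members were called for the diet in DD and 3 for diet by light. The Benjamini-Hochberg adjustment left 0 rhythmic members in Ctrl LD and 1 in -Trp LD, and the limma cosinor model at an unadjusted p under 0.05 called 4 in Ctrl LD and 1 in Ctrl DD (Slc1a5). The cause of these changes was not tested. With each library left out in turn, the members called numbered 0 to 0 (diet, LD), 2 to 3 (diet, DD), 9 to 9 (light, Ctrl), 7 to 8 (light, -Trp), 1 to 2 (diet by light), 0 to 0 (rhythm between diets, LD and DD), and for the rhythm in LD 1 to 3 on Ctrl and 3 to 3 on -Trp, and in DD 0 to 2 on Ctrl and 0 to 0 on -Trp. In Ctrl DD, Slc1a4 and Slc1a5 were called rhythmic without the library at 12 h, replicate 3, Slc1a5 also without that at 4 h, replicate 1, and Slc7a8 without that at 0 h or 16 h, replicate 2. For Slc3a2, leaving out any of 11 single libraries brought the adjusted p for diet by light under 0.05, the lowest being 0.0267.

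The fit with the replicate number as a replicate block called 0, 2, 9 and 8 members for the diet in LD and in DD and for light on Ctrl and on -Trp, 1 for diet by light, 0 and 0 for the rhythm between diets, and 3 rhythmic members on each diet in LD and 0 on each diet in DD, where Slc7a8 was added in Ctrl LD. Whether the numbers pair the libraries is not known. The correlation of the deviations of same-numbered libraries of the diets had a median of -0.011 in LD (-0.35 to 0.272). In DD its median was 0.175 (-0.07 to 0.445), so same-numbered DD libraries tended to deviate alike. It was over 0.1 in 4 of 18 pairs in LD and 12 of 18 in DD. Depth is unknown, and with it the counting error of Slc1a5, the lowest member.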
